A study of Mus musculus with 4 samples.

Results

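The genes described here encode the folding machinery of the endoplasmic reticulum (ER) and the unfolded protein response, the signalling that adjusts that machinery to its load. The 33 members were taken by symbol from a list of named genes, and all 33 were found among the 23283 gene symbols of the data. Of these, 32 had a mean of at least 1 FPKM (fragments scaled to the length of a transcript and to the depth of its library) over the 4 libraries and were compared, and Derl3 was the 1 member under that level. RNA was sequenced from Th2 cells, the helper T cell type that secretes IL-4, IL-5 and IL-13, grown from splenic CD4 T cells of C57BL/6 mice. The groups were Menin knockout (KO) and wild type (WT) cells of a culture named as 3 weeks, and KO and WT cells of a 5-day culture. All 4 began with 5 days of stimulation in 15 ng/ml IL-2 and 10 ng/ml IL-4. For the longer culture, 2 days with no cytokine added and then 5 days of renewed stimulation followed, on immobilized anti-TCR antibody, in IL-2 plus anti-IL-4. Together these steps take less time than the culture's name states, and the labels do not account for the remainder. How and in which cells Menin was deleted, how many mice gave cells and whether the libraries came from separate mice were not given in the sources used here. With 1 library in a group, no difference below has a replicate error, a test or a p-value.

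Proteins that are secreted or sit in membranes enter the ER through the Sec61 channel, are folded there by chaperones, and are returned to the cytosol for destruction when folding fails. Unfolded protein is sensed by 3 proteins of the ER membrane. IRE1 alpha, made by Ern1, is a kinase and nuclease that cuts an intron out of Xbp1 RNA in the cytosol, and the spliced RNA encodes an active transcription factor. PERK, made by Eif2ak3, phosphorylates the translation factor eIF2 alpha, which slows protein synthesis and favours translation of Atf4. ATF6, made by Atf6, is cut in the Golgi and releases a transcription factor. The response is best known in plasma cells and other cells that secrete heavily, and T cells that make cytokines use the same machinery.

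The stretch of Xbp1 RNA that IRE1 alpha removes is shown because Ern1 and Xbp1 stood apart in opposite directions in the longer culture. It lies in exon 4 of Xbp1 at chr11:5524279-5524304 (GRCm38, plus strand, GENCODE M21 transcripts) and is 26 bases long. Capitals mark the removed bases, with 12 bases of exon on each side.
Xbp1: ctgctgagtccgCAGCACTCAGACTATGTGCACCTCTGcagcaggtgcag
All 3 coding transcripts of Xbp1 in this annotation hold these bases. The deposited values are per gene, so they do not tell spliced from unspliced Xbp1 RNA, and nothing below measures the activity of IRE1 alpha.

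ATF6 and spliced XBP1 act on a promoter sequence named the ER stress element, which reads CCAAT, any 9 bases and CCACG. It was searched on both strands of the RefSeq promoter windows (GRCm38.p6, 250 bases before to 50 after a start site), and 27 of the 33 members had a window, all but Hyou1, Manf, Atf6, Derl1, Sec61a1 and Ssr2. The element stood in the window of 9 of these 27 members (33.3%) and in 0.119% of all 32851 windows. These 9 were Hspa5, Hsp90b1, Calr, Canx, Creld2, Dnajc3, Pdia6, Syvn1 and Derl3. The following 6 are shown because the same letters stand before genes whose KO to WT ratios differed. The Hsp90b1 window held another element, nearer the start site and on the strand opposite to the gene, which is not shown. Capitals mark the CCAAT and CCACG ends, which read as CGTGG and ATTGG where the element lies on the strand opposite to the gene.
Hspa5, chr2:34772015-34772053, plus strand: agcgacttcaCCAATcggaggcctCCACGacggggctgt
Hsp90b1, chr10:86705628-86705666, minus strand: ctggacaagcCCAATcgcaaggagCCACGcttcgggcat
Calr, chr8:84847065-84847103, minus strand: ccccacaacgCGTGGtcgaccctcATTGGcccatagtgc
Canx, chr11:50325790-50325828, minus strand: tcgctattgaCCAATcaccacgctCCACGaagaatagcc
Dnajc3, chr14:118937817-118937855, plus strand: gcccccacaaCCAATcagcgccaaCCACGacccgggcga
Syvn1, chr19:6046522-6046560, plus strand: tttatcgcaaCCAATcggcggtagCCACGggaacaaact
The ends of the element were also searched alone, and each overlaps the full element where that is present. CCACG stood in 32.8% of all windows and in those of 21 of 27 members, and CCAAT in 37.4% of all windows and in those of 23 of 27 members. TGACGTGG, the core of the UPR element, which contains CCACG on its other strand, stood in 0.676% of all windows and in 0 of 27, and TGATGNAAT, the core of the amino acid response element, in 0.965% and in 0 of 27. A match is a description of letters and shows no binding.

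Depth inferred from the steps of low values was 21.4 M reads in KO 3-week, 23.5 M in WT 3-week, 22.7 M in KO 5-day and 20.7 M in WT 5-day. The counting intervals given below are approximate and cover counting error only. Men1, the targeted gene, stood at 5.88 FPKM in KO 3-week and 25.4 FPKM in WT 3-week, and at 10.3 FPKM in KO 5-day against 32.8 FPKM in WT 5-day, a direction that goes with the labels. The T cell genes Cd3e, Cd3d, Cd3g, Cd4, Cd2 and Lck summed to 2211 FPKM in KO 3-week, 1406 FPKM in WT 3-week, 1534 FPKM in KO 5-day and 1401 FPKM in WT 5-day, none of them under 99.8 FPKM in any library. At 3 weeks 4 of these 6 were higher in KO, Cd3g by an FPKM ratio of 2.64, while Cd2 and Lck had ratios of 0.731 and 0.728. The 6 listed Th2 genes, among them Gata3, Il5 and Il13, summed to 132 FPKM in KO 3-week and 397 FPKM in WT 3-week, and all 6 were at least 2-fold lower in KO. At 5 days they summed to 158 FPKM in KO and 188 FPKM in WT, where Ccr4 made up 71.2 FPKM in KO and 105.5 FPKM in WT, but 4 of the 6, Il4, Il5, Il13 and Il1rl1, were higher in KO (median log2 ratio 0.48). Of plasma and B cell markers, whose cells express the response strongly, 9 were matched and summed to between 1.04 and 3.61 FPKM in a library, with Pax5 at 0 in all 4. The 7 matched myeloid markers summed to 28.6 FPKM in KO 3-week, 3.60 FPKM in WT 3-week, 13.7 FPKM in KO 5-day and 4.80 FPKM in WT 5-day, and all 3 compared ones were at least 2-fold higher in KO 3-week (median log2 ratio 2.48). Itgax stood at 8.63 FPKM in KO 3-week and 0.0497 FPKM in WT 3-week, Itgam at 4.75 FPKM in KO 3-week and 0.0283 FPKM in WT 3-week, and Cd68 at 12.9 FPKM in KO 3-week and 3.25 FPKM in WT 3-week, whereas Csf1r was at 0 in both and Lyz2 at 0 in KO 3-week. The 3 NK cell markers summed to 4.64 FPKM in KO 3-week, 0.346 FPKM in WT 3-week, 3.04 FPKM in KO 5-day and 0.869 FPKM in WT 5-day, with Ncr1 at 0 in both WT libraries. The CD8 T cell genes Cd8a and Cd8b1 summed to 3.77 FPKM in KO 3-week, 2.04 FPKM in WT 3-week, 5.70 FPKM in KO 5-day and 4.38 FPKM in WT 5-day. The part of other cells in the values below was not tested, and in bulk RNA fewer cells of a type and less RNA per cell cannot be told apart.

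The summed level of the 33 genes was nearly the same in all 4 libraries, while a few regulators stood far apart. The sum was 3374 FPKM in KO 3-week and 3374 FPKM in WT 3-week, 0.705% and 0.724% of all FPKM in those libraries. At 5 days it was 3288 FPKM in KO and 3135 FPKM in WT. Chaperone, lectin, isomerase and translocon genes made up most of the sum, so it says little of the 3 sensors.

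**Figure D1:**
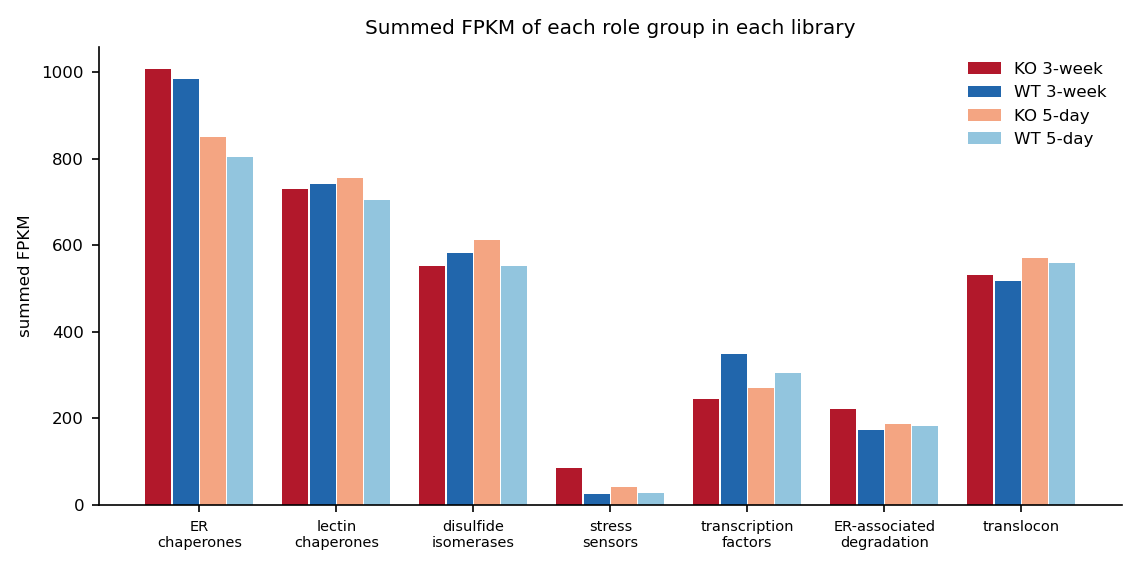
Summed FPKM (vertical axis, from 0) of the 7 role groups in the KO 3-week, WT 3-week, KO 5-day and WT 5-day libraries, 1 bar per library. The chaperone, lectin, isomerase and translocon sums lie close together, whereas the 3 sensors summed to 84.6 FPKM in KO 3-week and 26.3 FPKM in WT 3-week.

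In the longer culture 3 of 32 compared members were at least 2-fold higher in KO than in WT, namely Ern1, Eif2ak3 and Dnajb9, and 0 were at least 2-fold lower. The fold rule was applied to log2((KO FPKM + 1)/(WT FPKM + 1)), which understates the difference of low genes. Over all 10973 compared symbols, 7.97% were higher and 8.19% lower by that rule. A share of 9.38% of members higher is near that background. At a fold of 1.5, 5 members were higher, with Atf6 and Ddit3 added, and 2 were lower, Xbp1 and Canx. These are 15.6% and 6.25% of members, against 15.5% and 20.8% of all symbols. On the same log2 scale the median member was at 0.09 and the median symbol at -0.08, and 20 of 32 members (62.5%) lay within 1.25-fold of equality, against 40.9% of all symbols, which were not matched on level. The large differences sat in the named genes.

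**Figure D2:**
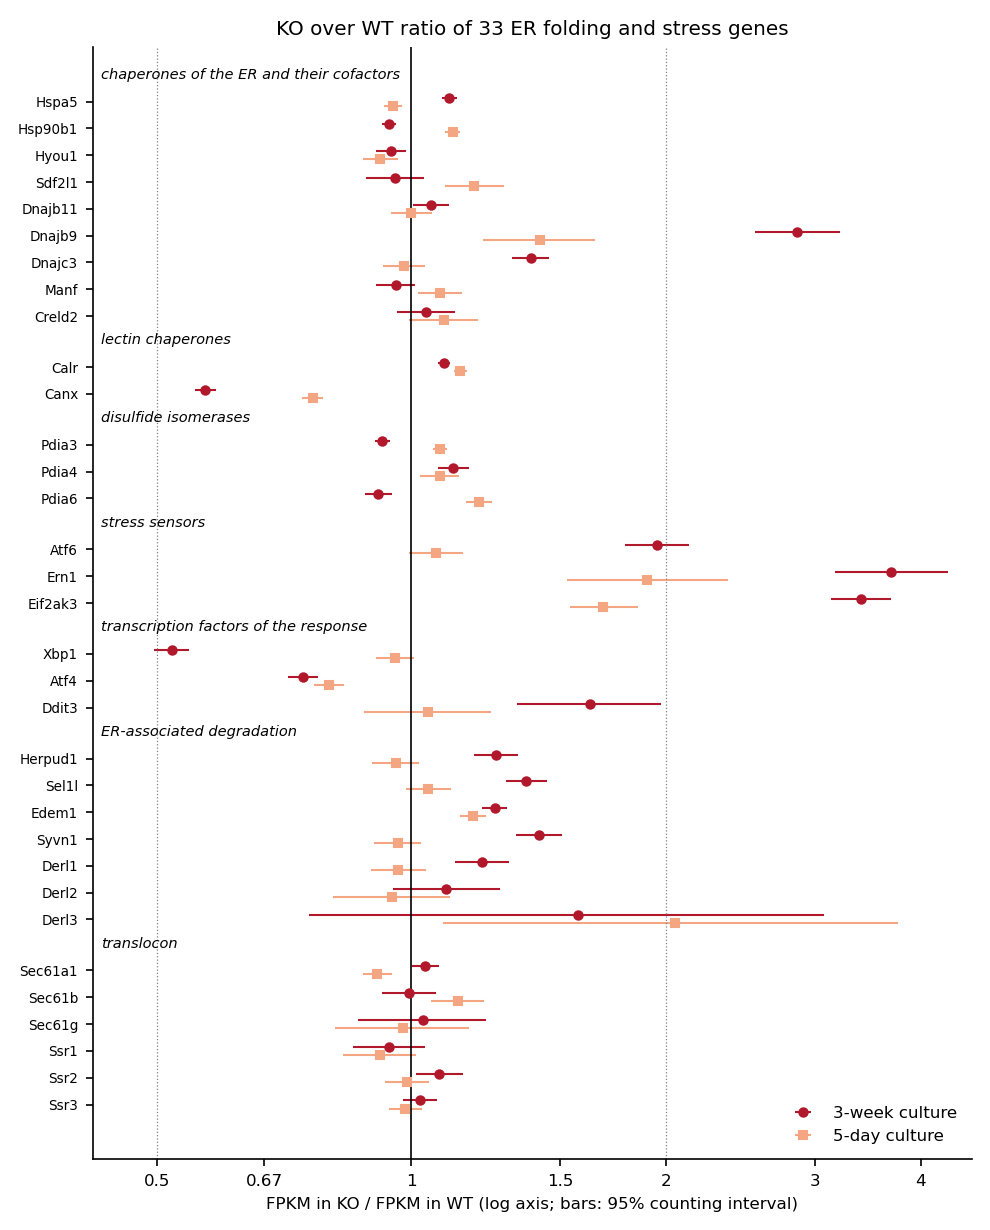
Ratio of FPKM in KO to FPKM in WT (horizontal log axis) for the 33 members by role, with circles for the 3-week culture, squares for the 5-day culture and bars for the 95% counting interval. Ern1, Eif2ak3, Dnajb9 and Atf6 lie to the right at 3 weeks, Xbp1 and Canx to the left, and most chaperone and translocon genes near 1.

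All 3 sensor genes stood higher in KO 3-week than in WT 3-week. Ern1 (chr11:106394650-106487852) stood at 31.2 FPKM in KO 3-week and 8.46 FPKM in WT 3-week, and at 10.2 FPKM in KO 5-day against 5.39 FPKM in WT 5-day. The FPKM ratio was 3.69 at 3 weeks (counting interval 3.17 to 4.30) and 1.90 at 5 days (1.53 to 2.37). KO 3-week was thus the highest library and WT 5-day the lowest, and within each culture KO was the higher library. Eif2ak3 (chr6:70844515-70905245) stood at 43.9 FPKM in KO 3-week and 12.9 FPKM in WT 3-week, and at 22.5 FPKM in KO 5-day against 13.3 FPKM in WT 5-day. Its ratio was 3.40 at 3 weeks (3.13 to 3.69) and 1.69 at 5 days (1.54 to 1.85), and its levels in the WT libraries lay close together. Atf6 (chr1:170704674-170867771) stood at 9.57 FPKM in KO 3-week and 4.90 FPKM in WT 3-week, and at 9.86 FPKM in KO 5-day against 9.23 FPKM in WT 5-day. Its ratio was 1.95 at 3 weeks (1.79 to 2.13) and 1.07 at 5 days (0.993 to 1.15). Here the library that stands apart is WT 3-week, which is lower than the other 3. Among all compared symbols, the log2 ratios of Ern1 and Eif2ak3 lay at percentiles 96.7 and 96.4 at 3 weeks and 95.9 and 94.8 at 5 days, and Atf6 at 90.0 and 66.0.

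Of the factors these sensors act through, Xbp1 and Atf4 were lower in KO 3-week and Ddit3 was higher. Xbp1 stood at 87.0 FPKM in KO 3-week and 167 FPKM in WT 3-week, a ratio of 0.521 (counting interval 0.496 to 0.546), and at 98.3 FPKM in KO 5-day against 103 FPKM in WT 5-day, a ratio of 0.957 (0.908 to 1.01). WT 3-week was the high library and the other 3 lay close together. Its log2 ratio of -0.93 put Xbp1 lowest of the 32 members and at percentile 9.54 of all symbols. Atf4, which encodes the transcription factor downstream of PERK, stood at 117 FPKM in KO 3-week and 157 FPKM in WT 3-week, a ratio of 0.744 (0.714 to 0.775). It stood at 129 FPKM in KO and 162 FPKM in WT at 5 days, a ratio of 0.800 (0.768 to 0.832), so the KO library was the lower one in each culture. ATF4 is controlled largely at translation, which RNA does not show. Ddit3, which encodes CHOP, a factor linked to death under lasting stress, stood at 41.0 FPKM in KO 3-week and 25.2 FPKM in WT 3-week, a ratio of 1.62 (1.33 to 1.97). The 5-day values were 42.1 FPKM in KO and 40.2 FPKM in WT, and as for Atf6 the low library was WT 3-week. An exon of Ddit3 overlaps Mars on the other strand, and use of strand in counting was not given in the sources used here. In all, 11 members share exon bases with a gene on the other strand, among them Dnajb9, Eif2ak3, Syvn1 and Hsp90b1. On the same strand 4 members do, Hsp90b1, Manf, Pdia4 and Ddit3, the last with a second entry of its own name. Part of such a value may come from the partner.

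**Figure D3:**
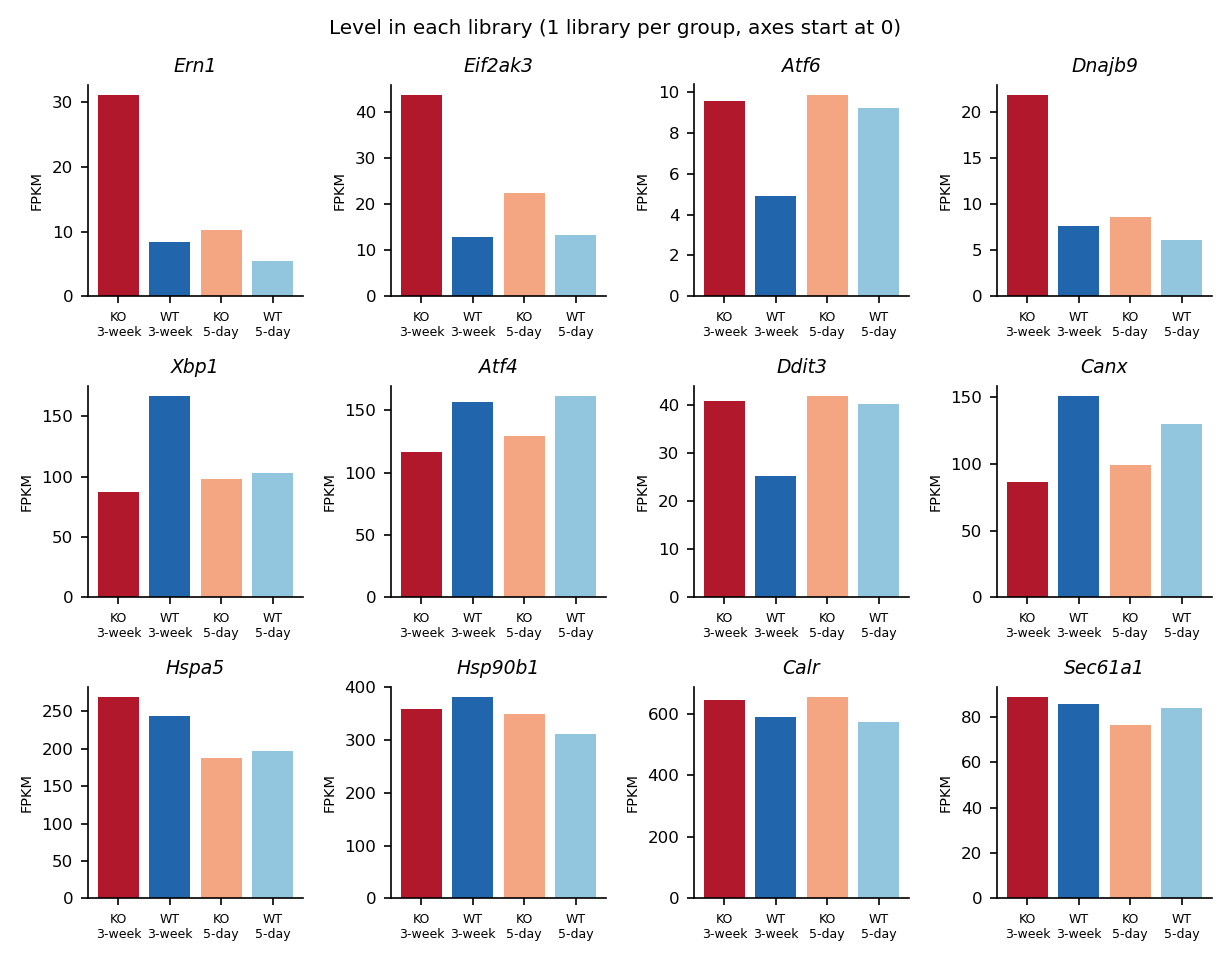
FPKM (vertical axes, each from 0) of 12 members in the KO 3-week, WT 3-week, KO 5-day and WT 5-day libraries, 1 bar per library. Ern1, Eif2ak3 and Dnajb9 are highest in KO 3-week, Xbp1 is highest in WT 3-week, Atf6 and Ddit3 are lowest in WT 3-week, and Hspa5, Hsp90b1, Calr and Sec61a1 vary far less.

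Of the 9 chaperone and cofactor genes, 1 was at least 2-fold higher in KO 3-week and 0 were lower, against 7.97% and 8.19% of all symbols. The higher gene was Dnajb9, which encodes a J protein that binds BiP and is a known target of spliced XBP1. It stood at 21.9 FPKM in KO 3-week and 7.65 FPKM in WT 3-week, a ratio of 2.86 (counting interval 2.55 to 3.21). In the 5-day culture Dnajb9 stood at 8.61 FPKM in KO and 6.07 FPKM in WT, a ratio of 1.42 (1.22 to 1.65). KO 3-week was the high library, and the other 3 lay between 6.07 and 8.61 FPKM. Dnajc3, another J protein gene, whose product also restrains PERK, stood at 32.96 FPKM in KO 3-week and 23.8 FPKM in WT 3-week, a ratio of 1.38, and at 22.6 FPKM in KO 5-day against 23.1 FPKM in WT 5-day.

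The abundant chaperones differed little between the genotypes. Hspa5, which encodes BiP, the central chaperone of the ER and a standard readout of the response, stood at 269.8 FPKM in KO 3-week and 243 FPKM in WT 3-week, a ratio of 1.11 (1.09 to 1.13). At 5 days it stood at 188 FPKM in KO and 197 FPKM in WT, a ratio of 0.952 (0.928 to 0.976). Both 3-week libraries were above both 5-day libraries. Hsp90b1, the ER form of HSP90, stood at 359 FPKM in KO 3-week and 383 FPKM in WT 3-week, and at 349 FPKM in KO 5-day against 312 FPKM in WT 5-day. Hyou1, a nucleotide exchange factor for BiP, stood at 47.8 FPKM in KO 3-week and 50.5 FPKM in WT 3-week, and at 36.3 FPKM in KO 5-day against 39.5 FPKM in WT 5-day. The other 4, Sdf2l1, Dnajb11, Manf and Creld2, had ratios between 0.956 and 1.05 at 3 weeks and between 0.999 and 1.19 at 5 days. The signs of Hsp90b1, Hyou1, Sdf2l1 and Manf at 3 weeks turned from lower to higher with median-of-ratios or upper-quartile scaling, so no direction is given for them.

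The lectin chaperones Calr and Canx, which hold glycoproteins by the same sugar signal, differed from each other. Calr, soluble in the ER, was the most abundant member in every library, at 645 FPKM in KO 3-week and 589.8 FPKM in WT 3-week, a ratio of 1.09 (1.07 to 1.11). After 5 days Calr stood at 656 FPKM in KO and 574 FPKM in WT, a ratio of 1.14 (1.12 to 1.16). Canx, the membrane form, stood at 86.2 FPKM in KO 3-week and 151 FPKM in WT 3-week, a ratio of 0.570 (0.554 to 0.587). After 5 days Canx stood at 99.0 FPKM in KO and 129.6 FPKM in WT, a ratio of 0.764 (0.742 to 0.786). Both KO libraries lay below both WT libraries for Canx and above them for Calr. Of the disulfide isomerase genes, Pdia3, which works with the lectin chaperones, stood at 333 FPKM in KO 3-week and 361 FPKM in WT 3-week, and at 397 FPKM in KO 5-day against 367 FPKM in WT 5-day. Pdia6 stood at 129.9 FPKM in KO 3-week and 142 FPKM in WT 3-week, and at 153 FPKM in KO 5-day against 128 FPKM in WT 5-day. Pdia4 stood at 90.2 FPKM in KO 3-week and 80.5 FPKM in WT 3-week, and at 62.9 FPKM in KO 5-day against 58.3 FPKM in WT 5-day. For Pdia3 and Pdia6 the KO library was the higher one at 5 days. Their 3-week log2 ratios of -0.11 for Pdia3 and -0.13 for Pdia6 shrank to -0.0066 and -0.022 with median-of-ratios scaling, so no direction is given for them at 3 weeks. For Pdia4 the KO library was the higher one in each culture.

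The 6 compared members of ER-associated degradation were higher in KO 3-week by small ratios. All 6 compared members lay above 0 (6 of 6, median log2 ratio 0.32), against 43.9% of all symbols with a median of -0.08. At least 1.5-fold higher were 0 of 6, against 15.5% of all symbols. With median-of-ratios or upper-quartile scaling Syvn1 passed that fold. At 5 days 2 of 6 lay above 0 (median -0.05), against 46.1% of all symbols. Syvn1, the ubiquitin ligase HRD1, stood at 34.9 FPKM in KO 3-week and 24.7 FPKM in WT 3-week, a ratio of 1.42 (1.33 to 1.51), and at 28.6 FPKM in KO 5-day against 29.7 FPKM in WT 5-day. Sel1l, the adaptor of that ligase, stood at 21.4 FPKM in KO 3-week and 15.7 FPKM in WT 3-week, a ratio of 1.37 (1.29 to 1.45), and at 16.4 FPKM in KO 5-day against 15.7 FPKM in WT 5-day. Herpud1, which binds the same complex, stood at 63.2 FPKM in KO 3-week and 50.2 FPKM in WT 3-week, and at 51.0 FPKM in KO 5-day against 53.2 FPKM in WT 5-day. Edem1, which marks misfolded glycoproteins by trimming their sugars, stood at 63.4 FPKM in KO 3-week and 50.6 FPKM in WT 3-week, and at 57.6 FPKM in KO 5-day against 48.7 FPKM in WT 5-day. For Syvn1, Sel1l and Herpud1 the 5-day libraries lay close together, while Edem1 was higher in KO in each culture. The derlins Derl1 and Derl2, membrane proteins of the exit route, had ratios of 1.21 and 1.10 at 3 weeks and 0.965 and 0.948 at 5 days. Derl3 stood at 0.937 FPKM in KO 3-week and 0.596 FPKM in WT 3-week, and at 1.47 FPKM in KO 5-day against 0.718 FPKM in WT 5-day, which rest on few reads (3-week counting interval of the ratio 0.757 to 3.07).

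The 6 translocon genes were level across the genotypes. The channel subunit gene Sec61a1 stood at 88.9 FPKM in KO 3-week and 85.6 FPKM in WT 3-week, and at 76.4 FPKM in KO 5-day against 83.8 FPKM in WT 5-day. The ratios of Sec61b and Sec61g, the small subunits, and of Ssr1, Ssr2 and Ssr3, subunits of the translocon-associated TRAP complex, lay between 0.941 and 1.08 at 3 weeks and between 0.917 and 1.13 at 5 days. Summed over the 6 genes the level was 530 FPKM in KO 3-week and 517 FPKM in WT 3-week, while it was 570 FPKM in KO 5-day against 559 FPKM in WT 5-day.

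The members with an ER stress element in the window stood on both sides of equality. Of 8 compared ones, 5 were above 0 and 3 below at 3 weeks, with a median log2 ratio of 0.09. The range ran from -0.80 (Canx) to 0.49 (Syvn1), and 0 were at least 2-fold higher. Of all symbols 43.9% were above 0 and 7.97% at least 2-fold higher. With so few members, 0 of 8 is near that share. The 3 members that were at least 2-fold higher, Ern1, Eif2ak3 and Dnajb9, had windows without the full element. Of the other 28 symbols with the element, 7 were compared, 4 of them above 0 and 3 below.

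After 5 days the members stood closer together. At least 2-fold higher were 0 of 32 and at least 2-fold lower 0 of 32, against 2.77% and 0.82% of all symbols, and 28 of 32 (87.5%) lay within 1.25-fold, against 74.5% of all symbols. At a fold of 1.5 Ern1 and Eif2ak3 were higher (2 of 32, 6.25%) and 0 were lower, against 6.98% and 2.71% of all symbols. The genotype contrasts of the cultures share no library. Ern1 and Eif2ak3 (2 of 32) were at least 1.5-fold higher in both, and 0 of 32 members were at least 1.5-fold lower in both. Of all 10973 symbols, 568 were higher and 209 lower in both by that rule, so the member counts are near the background. The sign was the same in both cultures for 15 of 32 members (46.9%), 10 higher and 5 lower, whereas it was the same for 75.9% of all symbols. Many members lay near 0, and median-of-ratios and upper-quartile scaling turned some signs, among them those of Hsp90b1, Sdf2l1 and Manf at 3 weeks. The count of 15 therefore depends on the scaling, and its difference from all symbols was not tested. The ratio was larger in size at 3 weeks for 22 of 32 members (68.8%) and for 79.6% of all symbols. The KO to WT ratio at 3 weeks divided by that at 5 days was 2.02 for Eif2ak3, 2.01 for Dnajb9, 1.94 for Ern1, 1.83 for Atf6, 1.55 for Ddit3 and 0.544 for Xbp1. On the scale with 1 FPKM added, 0 of 32 members reached a 2-fold difference between the contrasts in either direction, against 4.53% of all symbols above and 4.7% below.

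Set against the 5-day culture, the longer culture of KO cells had higher Ern1, Dnajb9 and Eif2ak3. In KO, Ern1 had an FPKM ratio of 3.05 (counting interval 2.64 to 3.52), Dnajb9 of 2.54 (2.27 to 2.85) and Eif2ak3 of 1.95 (1.82 to 2.09). At least 2-fold higher were 2 of 32 members (6.25%), Ern1 and Dnajb9, and 0 were lower, against 4.35% and 4.39% of all symbols. In WT the same ratios were 1.57 for Ern1, 1.26 for Dnajb9 and 0.967 for Eif2ak3, with 0 members at least 2-fold higher and 0 lower, against 3.03% and 2.83% of all symbols. Xbp1 had a ratio of 0.885 in KO (0.838 to 0.934) and 1.63 in WT (1.55 to 1.70), Atf6 of 0.970 in KO and 0.531 in WT, and Ddit3 of 0.974 in KO and 0.627 in WT. The chaperone group stood above its 5-day level in both genotypes, with 8 of 9 members above 0 in KO (median log2 ratio 0.39) and 9 of 9 in WT (median 0.29), against 42.9% of all symbols above 0 in KO (median -0.06) and 51.9% in WT (median 0.01). Hspa5 had ratios of 1.44 in KO and 1.23 in WT, Pdia4 of 1.43 in KO and 1.38 in WT, and Creld2 of 1.33 in KO and 1.39 in WT. Culture length goes together with restimulation, with the antibody against IL-4 and with the absence of added IL-4, and these cannot be told apart. Each culture contrast shares its libraries with the genotype contrasts.

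Genes around these members were read from lists chosen with earlier results of these data known. Of 27 compared targets of ATF4 and of the integrated stress response, the pathway that PERK feeds, 23 lay below 0 in KO at 5 days (median log2 ratio -0.36), against 53.6% of all symbols (median -0.02). Of these 27, 7 were at least 1.5-fold lower and 0 higher, against 2.71% and 6.98% of all symbols. At 3 weeks 4 of 27 were higher and 4 lower by 2-fold or more (median -0.21), against 7.97% and 8.19% of all symbols. The higher ones were Nupr1, at 11.6 FPKM in KO 3-week and 3.70 FPKM in WT 3-week, Ddit4, an inhibitor of mTOR signalling, at 202 FPKM in KO 3-week and 89.7 FPKM in WT 3-week, Atf5, at 12.1 FPKM in KO 3-week and 5.33 FPKM in WT 3-week, and Ppp1r15a, which encodes the phosphatase subunit that reverses PERK signalling, at 18.2 FPKM in KO 3-week and 8.56 FPKM in WT 3-week. The lower ones were the stress factor gene Atf3, at 2.55 FPKM in KO 3-week and 7.73 FPKM in WT 3-week, and the cystine transporter gene Slc7a11, at 3.71 FPKM in KO 3-week and 8.45 FPKM in WT 3-week. The remaining pair serve the making of serine and of folate-bound carbon units, Psat1 at 49.6 FPKM in KO 3-week and 113 FPKM in WT 3-week and Mthfd2 at 26.2 FPKM in KO 3-week and 56.6 FPKM in WT 3-week. The targets past 2-fold thus stood on both sides. At a fold of 1.5, 8 of 27 were lower and 5 higher, against 20.8% and 15.5% of all symbols. Below 0 lay 16 of 27, against 55.8% of all symbols. Of 3 other kinases of eIF2 alpha, 0 were at least 2-fold higher or lower at either time. Eif2ak2, an interferon-induced kinase, stood at 12.6 FPKM in KO 3-week and 8.08 FPKM in WT 3-week, and Eif2ak4, a sensor of amino acid shortage, at 3.56 FPKM in KO 3-week and 5.43 FPKM in WT 3-week.

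Cytosolic and mitochondrial chaperones, which fold proteins outside the ER, stood lower in KO 3-week. Of 19 compared genes 18 lay below 0, and 7 were lower by 2-fold or more while 0 were higher. Of all symbols 55.8% lay below 0, 8.19% were lower by 2-fold and 7.97% higher. The median log2 ratio was -0.79 in the list and -0.08 over all symbols. At 5 days 15 of 19 lay below 0 with a median of -0.27, against 53.6% of all symbols with a median of -0.02. By the rule with 1 FPKM added, 0 of 19 were past 2-fold in either direction. Hsp90aa1, the inducible cytosolic HSP90, stood at 54.4 FPKM in KO 3-week and 161 FPKM in WT 3-week, and the mitochondrial chaperonin gene Hspd1 at 37.5 FPKM in KO 3-week and 113 FPKM in WT 3-week. Hspa9, the mitochondrial HSP70, stood at 36.4 FPKM in KO 3-week and 95.8 FPKM in WT 3-week, and Hspa4 at 37.7 FPKM in KO 3-week and 102 FPKM in WT 3-week. The cytosolic chaperonin genes Cct3 and Tcp1 stood at 41.4 and 77.5 FPKM in KO 3-week and at 102 and 175 FPKM in WT 3-week. Hsph1 lay at the 2-fold limit, with a log2 ratio of -1.0. The difference between this list and the ER chaperones was not tested.

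The other ER lists held few genes past 2-fold. Of all symbols 7.97% were higher and 8.19% lower at 3 weeks, and 2.77% and 0.82% at 5 days. The lists were not tested against these shares. Of 17 other oxidoreductases and folding enzymes 1 was at least 2-fold higher at 3 weeks, Qsox1, which forms disulfides, at 48.1 FPKM in KO 3-week and 17.5 FPKM in WT 3-week, and at 29.8 FPKM in KO 5-day against 23.2 FPKM in WT 5-day. At 5 days 1 of 17 was higher, the isomerase gene Pdia5, at 4.24 FPKM in KO 5-day against 1.55 FPKM in WT 5-day, an FPKM ratio of 2.74. Its ratio was as large at 3 weeks, 2.81, from 3.10 FPKM in KO 3-week and 1.10 FPKM in WT 3-week, and it missed the 2-fold rule there (log2 ratio 0.96) because 1 FPKM is added. The list's medians were 0.18 at 3 weeks and 0.19 at 5 days, against -0.08 and -0.02 over all symbols. Of 18 other degradation genes 1 was at least 2-fold higher at 3 weeks, Os9, a lectin that brings misfolded glycoproteins to the Syvn1 ligase. Os9 stood at 162 FPKM in KO 3-week and 57.7 FPKM in WT 3-week, and at 101 FPKM in KO 5-day against 60.8 FPKM in WT 5-day. Of the 18 genes, 11 lay above 0 at 3 weeks (median log2 ratio 0.09), against 43.9% of all symbols (median -0.08). No gene of the 15 glycan genes, 18 other translocation genes, 21 ER to Golgi genes or 7 other ER membrane factors and proteases was at least 2-fold higher or lower at either time (0 in each list). Their medians at 3 weeks were -0.09, -0.03, -0.04 and 0.16. The largest ratios of the glycan list were lower in KO, for the glucosidase gene Mogs, at 28.5 FPKM in KO 3-week and 46.9 FPKM in WT 3-week, and for Rpn1, a subunit of the oligosaccharyltransferase, at 45.4 FPKM in KO 3-week and 69.0 FPKM in WT 3-week. Those of the other 3 lists were higher in KO. Sec61a2, another form of the channel subunit, stood at 5.41 FPKM in KO 3-week and 2.69 FPKM in WT 3-week. Its FPKM ratio of 2.01 missed the 2-fold rule (log2 ratio 0.80) because 1 FPKM is added. Ssr4, a further TRAP subunit, stood at 204 FPKM in KO 3-week and 119 FPKM in WT 3-week. Of the transport genes, Mcfd2, which works with a cargo receptor, stood at 18.2 FPKM in KO 3-week and 9.67 FPKM in WT 3-week, and the coat gene Sec24d at 20.3 FPKM in KO 3-week and 12.5 FPKM in WT 3-week. Creb3l2, an ER membrane factor released by cutting as ATF6 is, stood at 11.9 FPKM in KO 3-week and 6.84 FPKM in WT 3-week. Nfe2l1, which drives proteasome genes, stood at 30.2 FPKM in KO 3-week and 23.5 FPKM in WT 3-week.

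**Figure D4:**
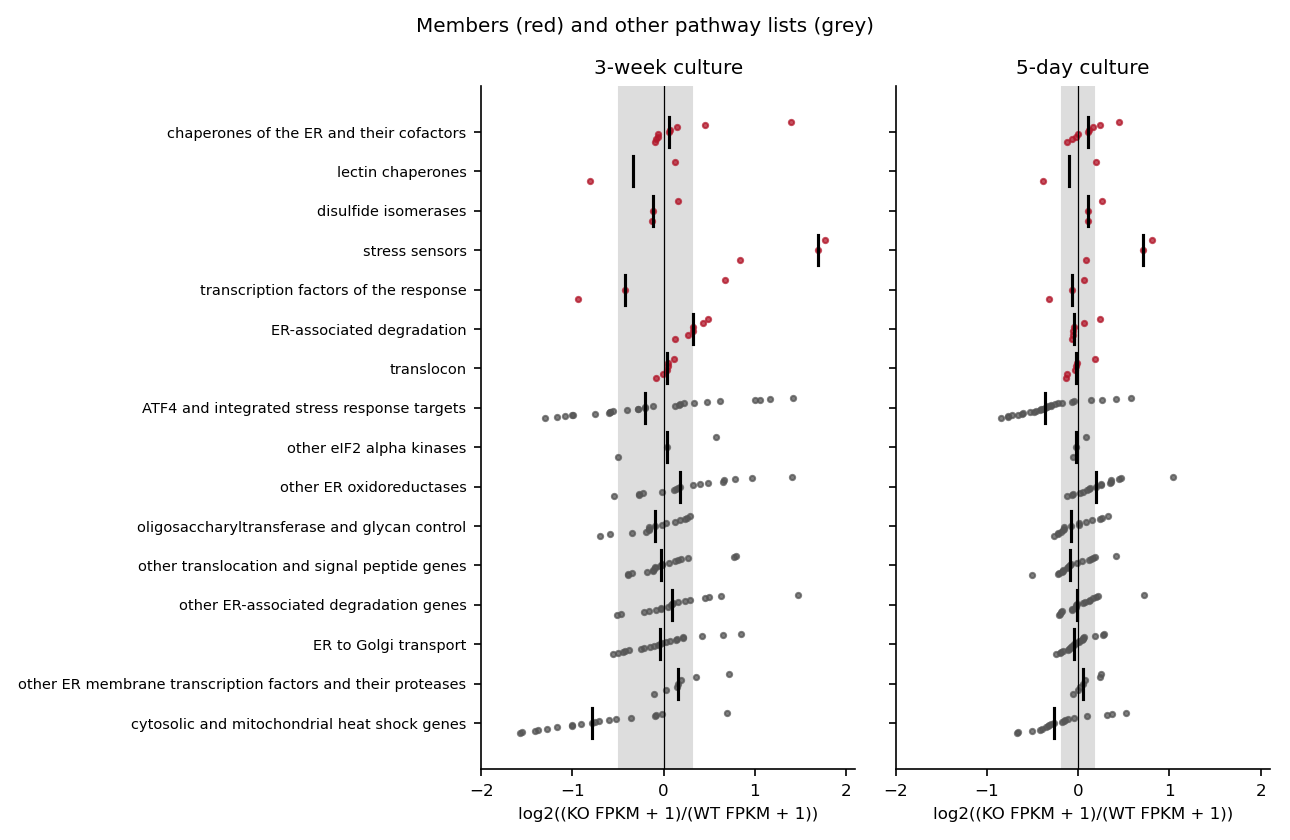
Log2((KO FPKM + 1)/(WT FPKM + 1)) on the horizontal axis for compared genes of the 7 role groups (red) and 9 further lists (grey), 1 point per gene, for the 3-week (left) and 5-day (right) cultures. Black bars mark medians and the grey band the interquartile range of all 10973 compared symbols. At 3 weeks the 3 sensors lie right of the band and the median of the cytosolic and mitochondrial list, -0.79, lies left of it.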

How the data were processed

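The deposited values are FPKM for each gene symbol. No header names the unit, which was taken from the Cufflinks entry and the range of values. The authors used Bowtie (0.12.8), TopHat (1.3.2) and Cufflinks (2.0.2) with genome mm10, per the submitters' processing notes. Per the labels' protocols, RNA was taken up in TRIzol and the kit was TruSeq Stranded mRNA. The annotation, strand setting and any filter were not given in the sources used here. Lines of the same symbol were summed (240 symbols on 702 of 23746 lines), and 1 symbol with an unreadable value was left out.

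Ratios used log2(FPKM + 1) over 10973 symbols with a mean of at least 1 FPKM. With 1 library per group no test was run. Alternatives were pseudocounts of 0.1 and 5, no filter, a mean of at least 5 FPKM, median-of-ratios, upper-quartile and TPM scaling, and the largest line of a symbol. Depth was inferred by finding the library size at which low values of genes that GENCODE M21 gives 1 transcript, with 200 bases subtracted, fell on whole reads. Between 58.3% and 60.8% of such values lay within 0.05 of a whole number, against 10% for evenly spread values. Counting intervals are exact Clopper-Pearson 95% intervals on the implied reads, with the median length of a gene's coding transcripts, so they are approximate.

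The members and lists were chosen with earlier results of these data known. All members and Men1 may be named, as may list genes at least 2-fold apart in a genotype contrast, or else a list's 2 largest ratios at 3 weeks. Of the listed symbols, Vimp, Fam8a1, Jchain, Mzb1 and Adgre1 had no match and were not analysed here. Simulated counts were used to check the steps, with counting error only, which holds no difference between cultures or mice. Python 3.11.15, numpy 2.4.6, pandas 2.3.3 and scipy 1.17.1 were used.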

Additional observations from a re-analysis of the deposited data

Results flagged for a closer look

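For 5 members and for Atf5, KO over WT in FPKM as deposited pointed one way at 3 weeks and the other way at 5 days. Both counting intervals lay away from equality. Further listed genes, among them the Th2 genes Il4, Il5, Il13 and Il1rl1, also had ratios on opposite sides of equality and are not treated here. The KO to WT ratio at 3 weeks divided by that at 5 days was 1.17 for Hspa5, 1.14 for Sec61a1, 0.840 for Hsp90b1, 0.855 for Pdia3 and 0.760 for Pdia6. It was 3.08 for Atf5, a stress factor gene that stood at 12.1 FPKM in KO 3-week and 5.33 FPKM in WT 3-week, and at 15.5 FPKM in KO 5-day against 20.9 FPKM in WT 5-day. These differences were not tested, because each group held 1 library. The member differences are small, and for 3 of the 5 the 3-week value depends on the scaling. With median-of-ratios and upper-quartile scaling the 3-week log2 ratio of Hsp90b1 was 0.018 and 0.025, the same sign as at 5 days. That of Pdia3 was -0.0066 and -0.00018 and that of Pdia6 -0.022 and -0.016, close to 0. Hspa5 and Sec61a1 kept opposite signs under both scalings.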

How the results depend on the processing

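The 2-fold calls of members between KO and WT, 3 higher and 0 lower at 3 weeks and 0 and 0 at 5 days, were the same in number under all 8 alternatives. The median member log2 ratio at 3 weeks, 0.09 as reported, was 0.20 with median-of-ratios and 0.21 with upper-quartile scaling, which moved the median of all symbols from -0.08 to 0.01, so the gap between members and all symbols was 0.18 as reported and 0.19 with both scalings. With a pseudocount of 5, members at least 1.5-fold higher at 5 days numbered 0, against 2 as reported, and members at least 2-fold higher in the longer culture of KO numbered 1, against 2. The latter numbered 3 with median-of-ratios scaling. Members at least 1.5-fold higher at 3 weeks numbered 5 as reported and 4 with a pseudocount of 5. They numbered 6 with median-of-ratios or upper-quartile scaling, which added Syvn1. Members whose genotype ratio was at least 2-fold higher at 3 weeks than at 5 days numbered 0 as reported, 2 with a pseudocount of 0.1 and 3 with either scaling. Larger pseudocounts shrink ratios by construction. The median log2 difference between the contrasts over all symbols moved from -0.079 to -0.0087 with median-of-ratios and 0.0034 with upper-quartile scaling. As reported, the log2 differences of Eif2ak3, Dnajb9 and Ern1 were 0.98, 0.96 and 0.95, just under the 2-fold limit. Signs of members near 0 turned with scaling, at 3 weeks for Hsp90b1, Hyou1, Sdf2l1, Manf, Sec61b, Ssr1 and Ssr3 and at 5 days for Dnajb11, Ssr2 and Ssr3. No paired analysis was possible because each group held 1 library, and leaving out a replicate was not possible either. Depth limits Derl3 most, at under 2 FPKM in every library.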
